A study of Mus musculus with 6 samples.

Results

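Foxp3-positive regulatory T cells (Tregs) were studied in single-cell RNA sequencing libraries of 6 mice bearing ovarian tumors. They were selected on measured transcripts: a cell with at least 250 genes and at most 5% mitochondrial transcripts counted as a Treg when it held at least 3 transcripts of the CD3 chains and T cell receptor constant regions (Cd3d, Cd3e, Cd3g, Trac, Trbc1 and Trbc2 together), at least 1 of Foxp3, none of Cd8a, Cd8b1 or Cd79a, and at most 5 of the myeloid genes Lyz2, C1qa, C1qb and C1qc together. The rule found 1295 Tregs among 51633 cells that passed the limits, out of 57078 barcodes, and among 14152 T cells. Transcripts were counted as unique molecular identifiers (UMIs), each standing for 1 captured RNA molecule.

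The study asked how inhibitors of glycosylation act with checkpoint blockade. KPCA cells, a mouse ovarian cancer line proficient in homologous recombination, were injected into the ovarian bursa of female C57BL/6 mice 6 to 8 weeks old. The mice received 2-deoxy-D-glucose (2DG, a glucose analog that also interferes with N-glycan synthesis), 2-fluoro-fucose (2FF, an inhibitor of fucosylation), an anti-PD-L1 antibody that blocks this checkpoint ligand, 2DG plus anti-PD-L1, 2FF plus anti-PD-L1, or, as control, solvent and rat IgG, and they were sacrificed on day 30. Dosing with 2DG and with the antibody began around day 9, whereas 2FF is described as given from implantation on, and tumor cells for the 2FF groups had also been exposed to 2FF before injection. Every condition was 1 mouse and 1 library, so a difference between treatments, between mice and between library preparations cannot be told apart, no test between treatments was made, and the intervals given with shares and levels are 95% intervals for counting error only. The sources differ on the tissue: the study's methods describe tumors, the sample labels lymph node, and the series text speaks of young and aged mice. Cells outside the T cell gate are, throughout, cells that passed the limits with no UMI of the CD3 and T cell receptor genes named above. The list of tumor and stroma markers had 11 genes, among them Epcam, keratins and collagens. In cells outside the gate it summed to 98.2 to 185 counts per 1000000 UMIs (CPM) in the 6 libraries. B cell markers summed to 195 to 762 CPM there, and macrophage and monocyte markers to 8731 to 10558 CPM. These values do not settle which tissue was sequenced.

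Regulatory T cells are CD4 T cells that restrain other lymphocytes. The transcription factor Foxp3 sets their program, they take up interleukin 2 through the high-affinity receptor chain Il2ra, and they carry the inhibitory receptor Ctla4 and members of the tumor necrosis factor (TNF) receptor family such as Tnfrsf4 (OX40), Tnfrsf9 (4-1BB) and Tnfrsf18 (GITR). Those in tumors and other non-lymphoid tissue often show an activated state with Klrg1, the interleukin 33 receptor Il1rl1 and the tissue repair factor Areg. They are known in tumors for limiting CD8 T cell responses.

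The 6 libraries held 61859753 to 73885214 UMIs. There were 86 Tregs in control, 385 with 2DG, 136 with 2FF, 268 with anti-PD-L1, 212 with 2DG plus anti-PD-L1 and 208 with 2FF plus anti-PD-L1. The median Treg had 6662.5, 5930, 4972.5, 5692.5, 5099 and 6682.5 UMIs in the same order, and the Tregs of a library summed to between 709928 UMIs in control and 2710811 with 2DG. The control library stood apart in 2 ways. It held the fewest T cells (460, against 2026 to 3073 in the other libraries), and its Tregs carried more RNA of neutrophil genes: 10 neutrophil markers summed to 2683 CPM in control Tregs, led by S100a9 at 920 CPM, and to 328 to 701 CPM in the other 5 libraries, where Il1r2 led at 260 to 399.5 CPM. Outside control, Il1r2 alone made up most of the sum. It was 299 of 344 CPM with 2DG, 260 of 328 with 2FF and 279 of 334 with anti-PD-L1. With 2DG plus anti-PD-L1 it was 399.5 of 701 CPM, and with 2FF plus anti-PD-L1 360 of 439 CPM. Whether this RNA came from neutrophils was not tested. In cells outside the T cell gate the 10 markers summed to 16874 CPM in control and 2194 to 4818 CPM elsewhere. Between 16 and 34 cell barcodes were shared by any pair of libraries.

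Tregs made up a larger share of T cells in control than in any other library. As a share of T cells they were 18.7% in control (15.2 to 22.6), 13.4% with 2DG (12.2 to 14.7), 10.3% with 2FF plus anti-PD-L1 (8.98 to 11.7), 9.58% with anti-PD-L1 (8.51 to 10.7), 7.25% with 2DG plus anti-PD-L1 (6.34 to 8.25) and 4.43% with 2FF (3.73 to 5.21). The intervals of 2FF plus anti-PD-L1 and of anti-PD-L1 overlapped, and those of the other neighbours in this order did not. The order was another one over all cells that passed the limits, because T cells were 5.07% of cells in control and 26.0% to 37.3% in the other libraries: Tregs were then 4.998% of cells with 2DG, 3.05% with anti-PD-L1, 2.66% with 2FF plus anti-PD-L1, 2.35% with 2DG plus anti-PD-L1, 1.47% with 2FF and 0.948% in control. For every 100 T cells with a Cd8a or Cd8b1 transcript and no Cd4 transcript there were 67.2 Tregs in control, 28.1 with 2DG, 18.4 with 2FF plus anti-PD-L1, 16.1 with anti-PD-L1, 12.2 with 2DG plus anti-PD-L1 and 6.75 with 2FF. Among T cells without a Cd8 transcript the Treg share lay much closer together in 4 libraries, at 27.4% with 2DG, 26.3% in control, 25.2% with anti-PD-L1 and 24.6% with 2FF plus anti-PD-L1, and was 19.0% under 2DG plus anti-PD-L1 and 14.1% with 2FF.

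**Figure D1:**
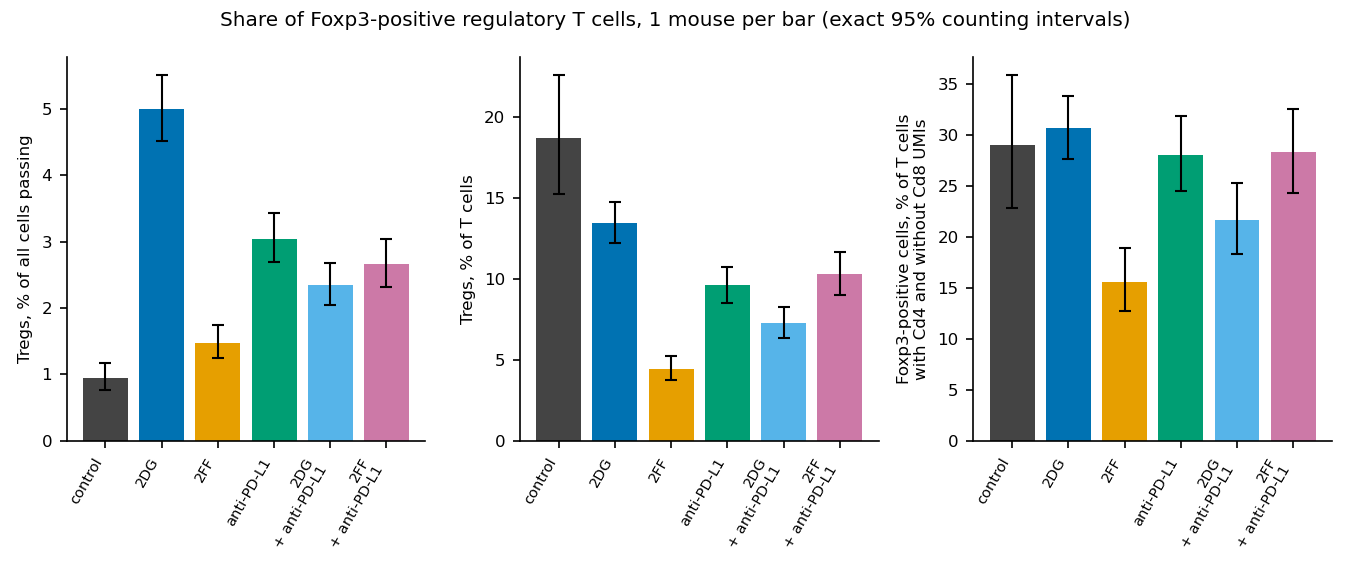
Share of Tregs (y axis, %) in the 6 libraries (x axis), over all cells passing, over T cells, and as Foxp3-positive cells among T cells with a Cd4 and without a Cd8 transcript. Bars are 1 mouse each and error bars exact 95% intervals for counting error; control was lowest over all cells (0.948%) and highest over T cells (18.7%), and 2FF was lowest in the last panel (15.6%).

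Some cells outside the rule also held a Foxp3 UMI. It was found in 0.460% to 1.56% of T cells with a Cd8 UMI and no Cd4 UMI (median depth 5893 to 8024 UMIs). In all T cells with a Cd8 UMI the share was 1.33% to 3.34%. Of cells outside the T cell gate, which have no T cell UMI, 0.280% to 0.907% held it (6363 to 7824 UMIs). Among T cells with Cd4 and without Cd8 transcripts the share of Foxp3-positive cells was 15.6% to 30.6%. Whether the UMIs in other cells came from free RNA in the droplets, from doublets or from expression was not tested. Of the Tregs, 360 rested on a single Foxp3 UMI. When each Treg was thinned to 2000 UMIs, 55.4% to 64.5% of Tregs kept a Foxp3 UMI, so the number of Tregs found depends on depth. Foxp3 itself (chromosome X, 7573644 to 7595245, plus strand, protein-coding; all positions are GRCm38) was summed to 355 to 460 CPM in Tregs, as its selection by the rule fixes.

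The other markers that define this cell type were not used by the rule, and they were present. Ikzf2 (Helios, a transcription factor of stable Tregs; chromosome 1, 69531214 to 69687245, minus strand) had a UMI in 98.5% to 99.3% of Tregs, against 49.5% to 76.1% of conventional CD4 T cells and 42.5% to 52.4% of CD8 T cells. Conventional CD4 T cells are here the T cells with a Cd4 UMI and none of Foxp3, Cd8a or Cd8b1 (2465 cells), and CD8 T cells have a Cd8 UMI and none of Cd4 or Foxp3 (7979 cells). Il2ra (chromosome 2, 11642807 to 11693193, plus strand) had a UMI in 81.6% to 88.0% of Tregs, 19.0% to 33.3% of conventional CD4 T cells and 8.07% to 15.6% of CD8 T cells. For Tnfrsf4 (chromosome 4, 156013843 to 156016612, plus strand) the shares were 83.7% to 90.6%, 44.8% to 61.3% and 8.86% to 11.8%. For none of these markers did the 6 Treg values overlap with those of either other group. All 3 markers were found together in 72.1% to 81.2% of Tregs, 8.45% to 16.9% of conventional CD4 T cells and 1.85% to 4.27% of CD8 T cells. At an equal depth of 2000 UMIs a cell, Ikzf2 was kept in 95.8% to 98.4% of Tregs, Il2ra in 61.2% to 70.9% and Tnfrsf4 in 50.1% to 69.7%.

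The conventional CD4 group can hold Tregs whose Foxp3 RNA was not sampled, and it needs a Cd4 UMI, which 57.5% to 71.9% of Tregs had. Cells just outside the rule also carried these markers. Of the 1788 Foxp3-positive cells that passed the limits, 216 were left out for having fewer than 3 T cell UMIs, 171 for a Cd8 UMI, 70 for over 5 myeloid UMIs and 13 for Cd79a, where a cell can fail more than 1 limit. The 29 cells with exactly 3 T cell UMIs, inside the rule, had Il2ra in 79.3%, Ikzf2 in 89.7% and Tnfrsf4 in 55.2%, and the 29 with 2, outside it, had 72.4%, 100% and 55.2%. The 87 cells left out for a single Cd8 UMI had Il2ra in 88.5%, Ikzf2 in 97.7% and Tnfrsf4 in 90.8%. Tregs with 1 Foxp3 UMI had 78.3%, 96.9% and 83.3%, beside 84.4%, 98.8% and 89.2% of all Tregs.

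**Figure D2:**
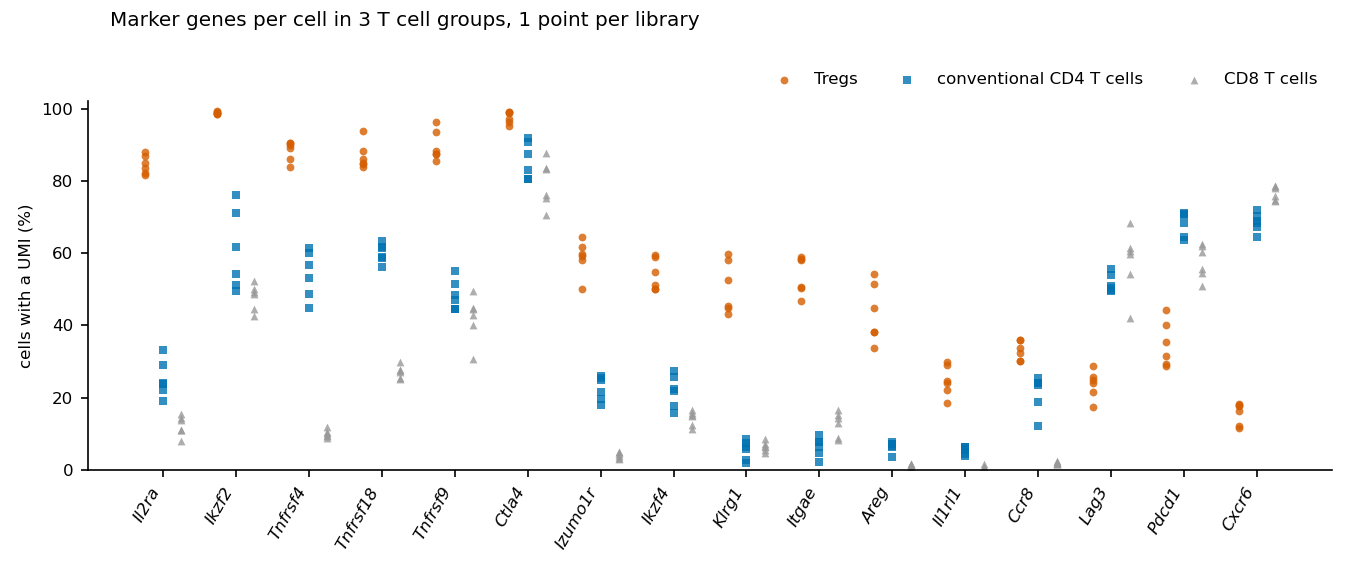
Share of cells with at least 1 UMI (y axis, %) of 16 marker genes (x axis) in Tregs, conventional CD4 T cells and CD8 T cells, 1 point per library. Tregs lay above both other groups for Il2ra, Ikzf2, Tnfrsf4, Klrg1, Itgae and Areg in all 6 libraries and below both for Lag3, Pdcd1 and Cxcr6.

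Tregs and conventional CD4 T cells of the same library were compared to ask what else Tregs expressed. UMIs were summed per library and group, and edgeR's quasi-likelihood test was run with the library as a term, so that the 6 mice were the replicates. A gene was called at a Benjamini-Hochberg adjusted p under 0.05 with more than a 2-fold difference. A gene could have enough UMIs for this test through either group alone, and the filter then partly fixed its direction. Of 10142 genes tested, 369 were higher in Tregs (3.64%) and 363 were lower (3.58%), leaving out the genes the rules used. Without the control library 410 were higher and 395 lower. The levels given below are lowest, median and highest CPM over the 6 libraries, and log2 fold changes are Tregs over conventional CD4 T cells with the standard error (SE). UMIs were captured at the end of transcripts, and levels are compared between cell groups, not between genes.

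Genes of Treg identity were higher as a group, led by receptors. Of 15 tested, 10 rose and none fell, with a median log2 fold change of 1.29 where the median of all genes was -0.02. The gene with the highest positive log2 fold change of all tested was Lrrc32 (GARP, which holds latent transforming growth factor beta on the cell surface, chromosome 7, 98489283 to 98502181, plus strand). It was at 28.2, 37.2 and 65.7 CPM in Tregs and 0, 2.98 and 3.71 CPM in conventional CD4 T cells (log2 fold change 4.03, SE 0.24, edgeR adjusted p = 2.58e-08). The 6 Treg values all lay above the 6 others. Il2ra stood at 875, 1283 and 1355 CPM against 114, 195 and 340 CPM (log2 fold change 2.62, SE 0.12, edgeR adjusted p = 3.07e-09), and Ikzf2 at 4224, 4675 and 5018 CPM against 424, 787 and 1532 CPM (log2 fold change 2.53, SE 0.17). Neither overlapped between groups, and the conventional value of Ikzf2 was highest in control and lowest with 2DG plus anti-PD-L1. Itgae, described with the homing receptors, also rose, and so did Izumo1r (folate receptor 4; log2 fold change 2.03), Ikzf4 (Eos, a partner of Foxp3; 1.69), Tnfrsf4 (1.58), Ctla4 (1.29), Tnfrsf18 (1.13) and Capg, an actin capping protein (1.13). Ctla4 was also abundant in conventional CD4 T cells, at 596 to 1229 CPM against 1524 to 2807 CPM in Tregs. Members that did not pass were Nrp1, a co-receptor often used to mark Tregs, at 162 to 237 CPM in Tregs and 149 to 424 CPM in conventional CD4 T cells (log2 fold change -0.61, lower in 5 of 6 libraries), Entpd1 (CD39; -0.16), Nt5e (CD73; 0.56), Il2rb (-0.06) and the TNF receptor Tnfrsf1b (0.64).

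Of 21 effector and suppressor genes tested, 6 rose, among them the receptors Klrg1 and Il1rl1 and the growth factor Areg, and 2 fell, the checkpoint receptors Lag3 and Pdcd1 (median log2 fold change 0.44). Klrg1, an inhibitory receptor that binds cadherins (chromosome 6, 122270596 to 122282882, minus strand), stood at 125, 225 and 284 CPM in Tregs and 7.58, 18.3 and 24.9 CPM in conventional CD4 T cells (log2 fold change 3.82, SE 0.19, edgeR adjusted p = 7.94e-09). Areg (amphiregulin, a ligand of the epidermal growth factor receptor; chromosome 5, 91139599 to 91148432, plus strand) stood at 146, 396 and 707 CPM against 13.8, 39.3 and 72.2 CPM (log2 fold change 3.22, SE 0.11, edgeR adjusted p = 4.04e-10). Il1rl1 (2.59), Tnfrsf9 (1.90), the cytotoxic protease Gzmb (1.18) and the suppressive cytokine Il10 (1.17) were also called, though the Gzmb levels of the groups overlapped. Il10 had a UMI in 10.1% to 16.3% of Tregs and was at 35.0 to 59.8 CPM. Lag3 was lower in Tregs (45.1, 78.4 and 95.7 CPM against 193, 248 and 331 CPM; log2 fold change -1.82), as was Pdcd1, the gene of PD-1 (68.2, 97.7 and 127 CPM against 261, 292 and 350 CPM; -1.62). Both groups of values were fully separate. Ccr8, a chemokine receptor of tumor Tregs, had a log2 fold change of 0.78 and did not pass the fold, with 59.0 to 104 CPM in Tregs and 24.4 to 65.8 CPM in conventional CD4 T cells. The costimulatory receptor Icos (0.64), the immune checkpoint Tigit (0.20) and the repressor Prdm1 (0.29) also did not pass.

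**Figure D3:**
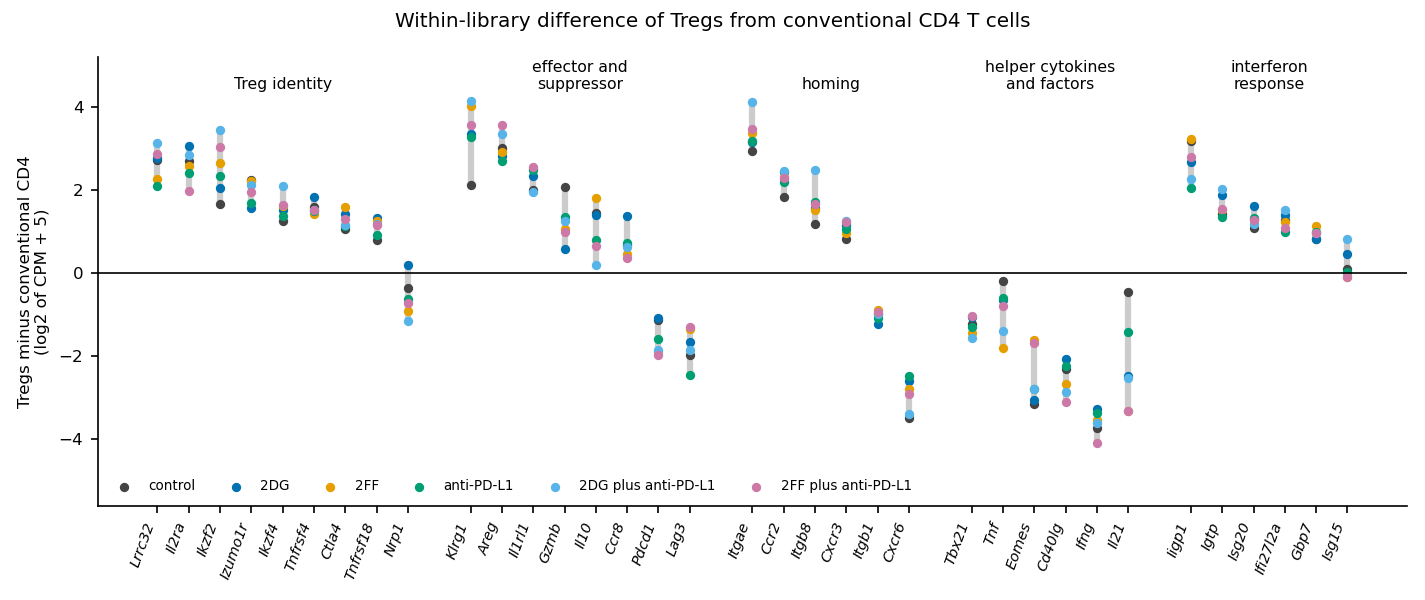
Within-library difference between Tregs and conventional CD4 T cells (y axis, log2 of CPM + 5) for named genes in 5 groups (x axis), 1 point per library and a grey bar from lowest to highest. Klrg1, Areg, Itgae and Iigp1 lay above 0 and Cxcr6, Ifng, Cd40lg and Lag3 below 0 in all 6 libraries; the added 5 CPM draws low genes such as Lrrc32 toward 0 compared with the edgeR fold changes.

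Receptors that place T cells in tissue differed in both directions. Of 18 homing and residency genes tested, 7 rose and 2 fell (median log2 fold change 0.56). Itgae (CD103, the integrin chain that binds E-cadherin on epithelium; chromosome 11, 73090583 to 73147446, plus strand) stood at 214, 248 and 280 CPM in Tregs against 7.96, 22.0 and 27.5 CPM (log2 fold change 3.65, SE 0.14, edgeR adjusted p = 1.03e-09). The inflammatory chemokine receptor Ccr2 (2.35), Itgb8, a chain of an integrin that releases active transforming growth factor beta (1.74), Ccr4 (1.42), Ccr6 (1.39), Cxcr3 (1.24) and Rgs2, a regulator of G protein signaling (1.08), were higher as well. Cxcr6, a chemokine receptor of resident T cells, was at 25.4, 41.5 and 50.2 CPM in Tregs and 278, 338 and 388 CPM in conventional CD4 T cells (log2 fold change -3.01, SE 0.12), and the integrin chain Itgb1 had a log2 fold change of -1.06. Of 9 genes of resting T cells tested, the transcription factors Tcf7 (-2.33) and Bach2 (-1.02; -0.97 without the 2DG plus anti-PD-L1 library and -0.99 without 2FF, both under the 2-fold limit) fell and none rose past 2-fold (median log2 fold change -0.06). Il7r, the interleukin 7 receptor (0.99), Satb1 (0.78) and Klf2 (0.71) were higher in all 6 libraries with an adjusted p under 0.05 by edgeR but under 2-fold. Of 13 genes listed for the interleukin 2 receptor and Stat5, Il2ra, Lrrc32 and the feedback inhibitor Socs2 (1.31) rose. Il2ra and Lrrc32 were also counted with Treg identity, and Lrrc32, which holds latent transforming growth factor beta, is not a member of that pathway. The survival gene Bcl2 fell (101 to 152 CPM against 423 to 646 CPM, log2 fold change -1.92), while Il2rb (-0.06), Stat5a (0.20) and Stat5b (0.18) did not pass. Of 15 genes of the TNF receptor family and costimulation, Tnfrsf4, Tnfrsf9 and Tnfrsf18 rose and none fell.

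Ifng, a cytokine of helper T cells, was low in Tregs. It was at 8.45, 32.5 and 47.8 CPM in Tregs and 174, 440 and 610 CPM in conventional CD4 T cells (log2 fold change -3.78, SE 0.11, edgeR adjusted p = 1.38e-10). Of 12 helper cytokine genes in the list, 5 had enough UMIs for a test, and all 5 were called lower. Cd40lg, which licenses antigen-presenting cells, had a log2 fold change of -3.53, Il21 of -4.42, Il13 of -6.20 and Tnf of -1.003. Il13, Il21 and Cd40lg, at medians of 0, 0.40 and 3.88 CPM in Tregs, had their UMIs mainly in conventional CD4 T cells. The filter thus partly fixed their direction, and the count of 5 says nothing about the list as a whole. The call of Tnf was lost without the 2FF library (-0.85) or that of 2DG plus anti-PD-L1 (-0.90). Il21 was at 1.84 to 57.1 CPM in conventional CD4 T cells, so that its level there varied widely between mice. Of 10 factors of helper T cell types, Eomes (-3.31) and Tbx21 (-1.31) fell, and Gata3 (0.35), Rora (0.66), Stat4 (-0.46) and Bcl6 (-0.32) did not pass. The remaining genes with the most negative log2 fold changes were Cntn1 (-6.30), Krt17 (-6.28), Hs6st3 (-5.89), Atp2b2 (-5.68), Idi2 (-5.36), Dlg2 (-5.35), Exph5 (-5.13), Ralyl (-5.02) and Dthd1 (-4.80). Tregs of at least 3 libraries had no UMI of Cntn1, Krt17, Il13, Il21, Hs6st3, Idi2, Exph5 and Ralyl, so the size of their fitted fold changes depends on the prior count. Dlg2, a synaptic scaffold gene, was at 131 to 356 CPM in conventional CD4 T cells and 0 to 15.5 CPM in Tregs. At the other end, after Lrrc32, came Rln3 (relaxin 3; 3.99), Ky (3.97), Klrg1, Cep112 (3.77), Frmd5 (3.70), Ccr3, an eotaxin receptor (3.66), Itgae, Cd79b (3.46) and Rragd, a GTPase of the amino acid sensing pathway (3.42). Frmd5 was at 424, 513 and 1183 CPM in Tregs and 21.2, 44.6 and 155 CPM in conventional CD4 T cells, and Cep112 at 87.3, 104 and 184 CPM against 1.84, 6.25 and 13.4 CPM, without overlap for either.

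Some interferon response genes were higher in Tregs. Of 23 interferon response genes tested, 5 rose and none fell (median log2 fold change 0.55). Iigp1, an immunity-related GTPase, stood at 184, 221 and 301 CPM against 18.4, 30.5 and 48.6 CPM (log2 fold change 2.82, SE 0.15, edgeR adjusted p = 1.04e-08), and Igtp (1.73), Isg20 (1.399), Ifi27l2a (1.26) and Oas1a (1.18) rose too. Gbp7 (0.97) was higher in all 6 libraries without overlap but did not pass the 2-fold limit, and nor did the other GTPases of the list, Gbp2 (0.72), Gbp4 (0.64), Irgm1 (0.55) and Ifi47 (0.53). The classic antiviral genes Ifit1 (0.34), Ifit3 (0.11), Isg15 (0.22) and Rsad2 (-0.41) did not pass.

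Of 16 N-glycan and fucose genes tested, 1 fell and none rose between Tregs and conventional CD4 T cells (median log2 fold change 0.05), a count near the share of all genes called (3.64% higher and 3.58% lower). The gene that fell was St6gal1, which adds terminal sialic acid and was at 22.5 to 41.4 CPM in Tregs and 69.4 to 106 CPM in conventional CD4 T cells (log2 fold change -1.29). Mgat5, the enzyme that branches N-glycans, was at 146 to 247 CPM against 171 to 243 CPM (0.08), and Fut8, which adds core fucose, at 85.9 to 190 CPM against 167 to 188 CPM (-0.47). Of 18 genes of glucose use, the lactate transporter Slc16a3 rose (1.04, and under the limit without the 2DG library, at 0.88, or that of 2DG plus anti-PD-L1) and none fell (median 0.16). Of 12 cell cycle genes, Ccnb1 rose (1.09) and none fell (median 0.63), a call lost without control (0.99), anti-PD-L1 (0.86) or 2FF plus anti-PD-L1 (0.90), and of 20 genes of dissociation and stress none passed (median 0.00).

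Markers of other cell types were looked at in the same comparison. None of 8 neutrophil and 7 macrophage or monocyte genes tested was called, and of 4 dendritic cell genes Ccl22 was lower in Tregs. Of 6 CD8 and NK genes, 4 fell: Nkg7 (-1.96), Klre1 (-2.77), Xcl1 (-3.03) and Eomes. Of 7 B cell markers in the list, only Ighm and Cd79b could be tested, and both were called higher. Cd79b, at a median of 0.74 CPM in conventional CD4 T cells, had its UMIs mainly in Tregs, so the filter partly fixed its direction. Ighm, the heavy chain constant region of IgM, was at 111, 196 and 206 CPM in Tregs and 12.9, 20.3 and 25.1 CPM in conventional CD4 T cells (log2 fold change 3.20, SE 0.09), and Cd79b was at 8.45 to 14.4 CPM. The B cell list summed to 121 to 250 CPM in Tregs and 15.6 to 32.6 CPM in conventional CD4 T cells, and Ighm led it in every library. Of the other members, Ms4a1, Iglc2 and Pax5 stood at 0 to 1.11, 0 to 1.20 and 0 to 3.50 CPM in Tregs. With 2DG plus anti-PD-L1 the list summed to 250 CPM and Ighm was at 193 CPM, so that members without values here also held part of the sum. The part of RNA from B cells was not tested. Epcam, an epithelial adhesion molecule, also rose (14.8, 19.5 and 49.0 CPM against 0.918, 2.10 and 4.33 CPM; log2 fold change 3.03). The collagen gene Col1a1 was at 0 to 1.20 CPM in Tregs, and Krt8 and Krt18 were at 0 to 2.92 CPM in 5 libraries but at 109 and 111 CPM with 2FF, where Epcam was highest. Leaving out 1 library at a time, the log2 fold change of Epcam ranged from 2.75 to 3.49. Of the gamma delta T cell genes, Tcrg-C2 was the 1 of 8 that could be tested and was called lower in Tregs (-4.48). Only the 2DG library had a UMI of it in Tregs. It thus had its UMIs mainly in conventional CD4 T cells, the filter partly fixed its direction, and the call says nothing about the list.

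Tregs were next compared among themselves. Klrg1 was found in 43.0% to 59.7% of Tregs, and each library was divided into Tregs with and without a Klrg1 UMI (37 and 49 cells in control, 202 and 183 with 2DG, 61 and 75 with 2FF, 160 and 108 with anti-PD-L1, 121 and 87 with 2FF plus anti-PD-L1, 96 and 116 under 2DG plus anti-PD-L1). Klrg1-positive Tregs had the higher median UMI count in every library (5525.5 to 7436, against 4530 to 6280). Few genes differed by this split. Of 7002 tested, 3 were higher (0.0428%) and 12 lower (0.171%) in Klrg1-positive Tregs by edgeR, and 87 had an adjusted p under 0.05. At 2000 UMIs a cell, without control, 3 were higher and 5 lower of 3886 tested.

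The 3 higher genes were Nckap5, Il1rl1 and Pcsk1. DESeq2 called 2 higher, Nckap5 and Il1rl1, and 2 lower, Ssbp2 and March3, which were chosen for naming after their values were seen. It gave no adjusted p for Pcsk1 or for Tnfsf8, Aff3, Dapk1, Hdgfl3 and St6gal1, which edgeR called lower. Nckap5 was at 182 CPM in Klrg1-positive Tregs and 38.4 CPM in the others in control, 185 and 54.2 CPM with 2DG, 243 and 45.2 CPM with 2FF, 457 and 72.2 CPM with anti-PD-L1, 260 and 120 CPM under 2DG plus anti-PD-L1, and 229 and 39.4 CPM under 2FF plus anti-PD-L1 (log2 fold change 2.03, SE 0.17, edgeR adjusted p = 2.00e-05). Positive and negative values did not overlap. Il1rl1, through which Tregs sense the alarmin interleukin 33, was at 156, 106, 214, 173, 178 and 122 CPM against 52.2, 51.1, 38.1, 64.3, 98.4 and 59.9 CPM in the same order (log2 fold change 1.29, SE 0.16, edgeR adjusted p = 7.68e-04), again without overlap. Pcsk1, a protease that processes prohormones, was higher in 5 of 6 libraries (log2 fold change 1.02), control being the exception at 57.9 against 60.4 CPM, and its call was lost without 2DG (0.98), 2FF (0.96) or anti-PD-L1 (0.82). Several genes of the lists were higher in all 6 libraries with an adjusted p under 0.05 by edgeR but under 2-fold: Areg (log2 fold change 0.74), Ccr2 (0.70), Igtp (0.51), Il2ra (0.50), Tnfrsf9 (0.43) and the glycolytic enzyme Tpi1 (0.38). Il2ra was at 1073 to 1604 CPM in Klrg1-positive Tregs.

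Genes lower in Klrg1-positive Tregs included Tnfsf8, the ligand of CD30 (log2 fold change -2.87, SE 0.56, edgeR adjusted p = 0.0153), which was at 46.7, 57.4, 2.38, 154, 78.1 and 69.3 CPM without Klrg1 and 0, 42.5, 0, 3.40, 0 and 2.78 CPM with it. The values overlapped only through the 2FF library, whose 2.38 CPM without Klrg1 lay below 3 of the values with it. Aff3, a nuclear regulator of transcription in lymphocytes, was at 82.4 to 138 CPM without and 11.6 to 60.9 CPM with Klrg1 (log2 fold change -1.89, SE 0.22, edgeR adjusted p = 4.83e-04) and did not overlap. The remaining ranked genes were Dapk1, a kinase of cell death pathways (-1.93), Hdgfl3 (-1.57) and St6gal1 (-1.52, lower in 5 of 6 libraries). The calls of Tnfsf8, Dapk1, Hdgfl3 and St6gal1 were lost without the 2FF plus anti-PD-L1 library, those of Tnfsf8 and St6gal1 also without anti-PD-L1, those of Dapk1 and St6gal1 without 2DG, and that of Dapk1 without 2FF. Under 2-fold but with an adjusted p under 0.05 by edgeR, Nrp1 (-0.75), Bach2 (-0.67), Nt5e (-0.65), Rgs2 (-0.55) and Stat5b (-0.49) were lower in 6 of 6 libraries.

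**Figure D4:**
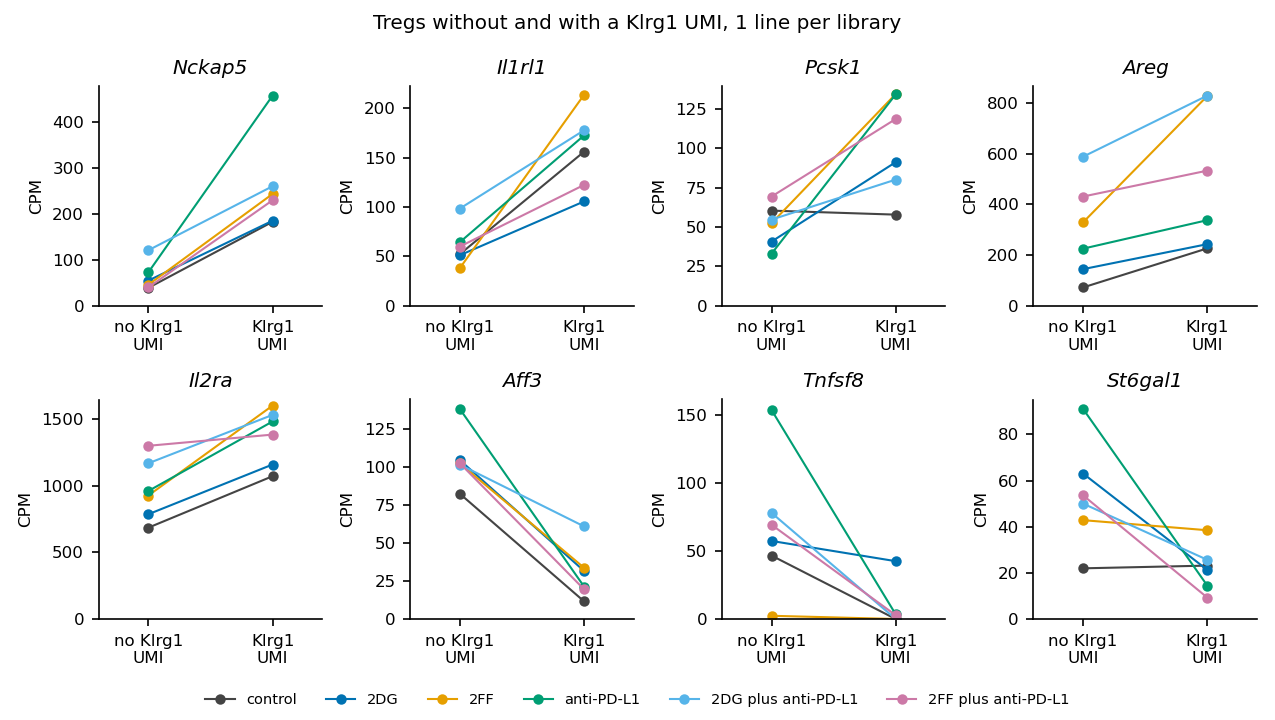
Level (y axis, CPM) of 8 genes in Tregs without and with a Klrg1 UMI (x axis), 1 line per library. Nckap5, Il1rl1, Areg and Il2ra were higher with Klrg1 in all 6 libraries, Pcsk1 in 5, and Aff3 and Tnfsf8 were lower in all 6, St6gal1 in 5.

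Proliferating cells were counted as those with at least 3 UMIs of 12 cell cycle genes such as Mki67 and Top2a. Among Tregs they were 24.4% in control, 18.4% with 2DG, 15.4% with 2FF, 15.7% with anti-PD-L1, 12.3% with 2DG plus anti-PD-L1 and 26.0% with 2FF plus anti-PD-L1. The highest of these, control and 2FF plus anti-PD-L1, were also the libraries with the deepest Tregs, and at 2000 UMIs a cell the shares were 8.98%, 6.95%, 7.79%, 7.52%, 5.59% and 9.41%. With all UMIs, conventional CD4 T cells had 15.5%, 23.8%, 9.85%, 11.6%, 10.2% and 20.6%, so that Tregs were higher in 5 libraries and lower with 2DG. Klrg1-positive Tregs had a higher share than Klrg1-negative ones in all 6 libraries (37.8% and 14.3% in control, 19.3% and 17.5% with 2DG, 19.7% and 12% with 2FF, 21.3% and 7.41% with anti-PD-L1, 17.7% and 7.76% under 2DG plus anti-PD-L1, 32.2% and 17.2% with 2FF plus anti-PD-L1). At equal depth the pairs were 14.6% and 4.71%, 6.44% and 7.52%, 9.42% and 6.45%, 10.5% and 3.15%, 7.42% and 4.06%, and 11.9% and 5.94%, so the direction held in 5 libraries and not with 2DG. These shares carry no test.

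Ikzf2 was nearly universal, with 1 to 5 negative Tregs a library, and could not be used to divide them.

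Treatments were compared as ratios of summed Treg CPM, with 5 CPM added to each, and genes needed at least 50 UMIs summed over the pair of libraries. A gene past 2-fold also had UMIs in at least 10 cells of the higher library. Against control, 230 of 7215 genes were past 2-fold with 2DG (3.19%, 83 higher and 147 lower), 211 of 4964 with 2FF (4.25%, 100 and 111) and 233 of 6445 with anti-PD-L1 (3.62%, 109 and 124). These 3 comparisons share the control library. At 2000 UMIs a cell the balance turned to 91 higher and 61 lower with 2DG, 61 and 49 with 2FF and 91 and 59 with anti-PD-L1, and with at least 2 Foxp3 UMIs required it was 99 and 83, 77 and 84, and 113 and 80. Against anti-PD-L1 alone, 139 of 6899 were past 2-fold with added 2DG (2.01%, 59 and 80) and 56 of 7307 with added 2FF (0.766%, 19 and 37). For added 2DG the balance was 23 higher and 16 lower with at least 200 UMIs, and 68 and 68 with ratios centred on their median. Against the inhibitor alone, added anti-PD-L1 gave 115 of 7570 for 2DG (1.52%, 62 and 53, but 49 and 62 at 2000 UMIs a cell) and 49 of 6368 for 2FF (0.769%, 18 and 31, but 17 and 15 at 2000 UMIs a cell). Pairs with fewer UMIs in 1 library, such as those with control, have more counting error.

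Areg, Satb1 and Klrg1 were lowest in control Tregs. Areg was at 146 CPM in control (120 to 178), 197 with 2DG (180 to 214), 297 with anti-PD-L1 (273 to 324), 495 with 2FF plus anti-PD-L1 (462 to 529), 576 with 2FF (526 to 630) and 707 under 2DG plus anti-PD-L1 (661 to 754), and of the neighbours in this order the counting intervals of 2FF plus anti-PD-L1 and of 2FF alone overlapped. It was past 2-fold for 2FF over control, for 2DG added to anti-PD-L1 and for 2DG plus anti-PD-L1 over 2DG (log2 ratio 1.82, with 1.29 in conventional CD4 T cells). In cells outside the T cell gate Areg was at 4.82 to 19.4 CPM. Satb1, a chromatin organizer of T cells, was at 93.0 CPM in control (71.9 to 118), 197 with 2DG, 343 with anti-PD-L1, 398 with 2FF plus anti-PD-L1, 448 with 2FF (404 to 496) and 470 under 2DG plus anti-PD-L1, with a log2 ratio of 2.21 for 2FF over control. Conventional CD4 T cells followed the same order from 72.5 CPM in control to 255 CPM with 2DG plus anti-PD-L1, with 2FF and 2FF plus anti-PD-L1 nearly equal (225 and 224 CPM). Klrg1 was at 125 CPM in control (101 to 154) and 218 to 284 CPM elsewhere.

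Gzma, a protease of cytotoxic granules, had the highest ratio to control with 2FF (log2 ratio 3.63) and with anti-PD-L1 (3.18). It was at 4.23 CPM in control (3 UMIs in 1 cell, 0.871 to 12.3), 33.2 with 2DG, 78.9 with anti-PD-L1, 109 with 2FF, 124 with 2DG plus anti-PD-L1 and 220 with 2FF plus anti-PD-L1, but its UMIs came from 8 to 12 Tregs in each of these 5 libraries. Conventional CD4 T cells had 8.26 CPM in control and 73.9 to 139 CPM in the others, and cells outside the T cell gate 1.54 CPM and 61.9 to 141 CPM. Whether Gzma RNA of other cells adds to these values was not tested. Apol8 was at 1.41 CPM in control Tregs (1 UMI, 0.0357 to 7.85) and 19.0 to 32.1 CPM in the other 5 libraries, next to 0.918 and 21.5 to 34.9 CPM in conventional CD4 T cells. Thsd7b, with 1 UMI each in control and 2DG, was at 30.9 to 46.3 CPM in the other 4 libraries. Pde11a, a phosphodiesterase, was at 1.41 CPM in control, also from 1 UMI, and 12.7 to 23.6 CPM in the other 5 libraries (log2 ratio 2.16 for 2DG over control), while conventional CD4 T cells had 64.3 CPM in control and 39.3 to 63.5 CPM in the others.

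**Figure D5:**
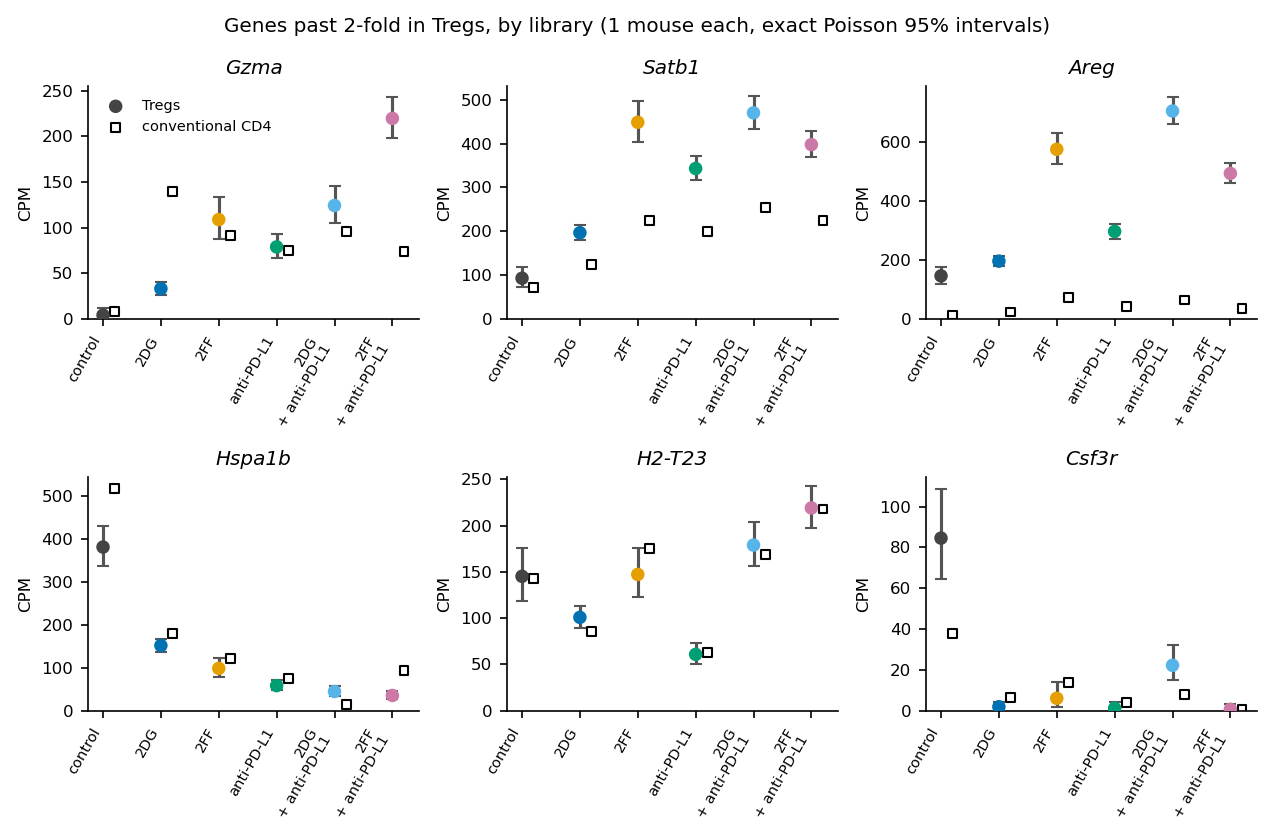
Level (y axis, CPM) of 6 genes past 2-fold between Treg libraries, by treatment (x axis). Filled circles are Tregs with exact 95% Poisson intervals for counting error, 1 mouse each, and open squares conventional CD4 T cells of the same library; Hspa1b was highest and Areg, Satb1 and Gzma lowest in control Tregs.

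The genes furthest below control included several that were also abundant outside the T cell gate. Csf3r, the receptor for granulocyte colony-stimulating factor, was at 84.5 CPM in control Tregs, from 10 cells, and 0.584 to 22.2 CPM in the others, and its log2 ratio was -3.71 with 2DG, -3.03 with 2FF and -3.87 with anti-PD-L1. Ankrd33b had log2 ratios of -3.45, -4.03 and -3.02, with 448 CPM outside the T cell gate in control and 51.1 to 79.6 CPM elsewhere. Of the neutrophil markers with enough UMIs, 6 of 6, 6 of 6 and 7 of 7 were below 0 in the same comparisons. Csf3r was at 354 CPM in control cells outside the T cell gate and 103 to 127 CPM in those of the other libraries, and the part of such RNA in the comparisons with control was not tested. Other ranked genes below control were Fnip2 with 2DG (-3.05; 742 CPM outside the T cell gate in control and 160 with 2DG) and Ccdc148 with 2FF (-2.85). Ccdc148 was low outside the T cell gate (0.430 to 0.852 CPM) and was at 100 CPM in control Tregs, 9.57 CPM with 2FF and 15.8 CPM with 2FF plus anti-PD-L1.

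The heat shock gene Hspa1b was lower in Tregs of each library with anti-PD-L1 than in its partner without. This stress-induced HSP70 chaperone (chromosome 17, 34956436 to 34959238, minus strand) was at 380 CPM in control Tregs (336 to 428), 151 with 2DG (137 to 167), 98.1 with 2FF (78.0 to 122), 57.9 with anti-PD-L1 (47.4 to 70.1), 44.3 with 2DG plus anti-PD-L1 (33.5 to 57.5) and 35.0 with 2FF plus anti-PD-L1 (26.7 to 45.1). In each of the 3 pairs of libraries that differ by anti-PD-L1, Hspa1b was more than 2-fold lower with the antibody (log2 ratios -2.61, -1.66 and -1.36), and it was the 1 gene of 6052 with enough UMIs (0.0165%) of which this was true. No gene was more than 2-fold higher in all 3 pairs. Hspa1b also went from 517 to 74.6 CPM between control and anti-PD-L1 in conventional CD4 T cells and from 386 to 204 CPM in cells outside the T cell gate. With 2DG the antibody went with 179 to 14.8 CPM in conventional CD4 T cells and 224 to 48.0 CPM outside the gate, but with 2FF with 120 to 92.6 CPM, under 2-fold, and with a higher value outside the gate (122 to 141 CPM). Its near-identical neighbour Hspa1a can share reads with it. The whole list of 20 dissociation and stress genes summed to 9463 CPM in control Tregs and 7318 to 8835 CPM in the others, and its part in these ratios was not tested.

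Adding 2FF, to control and to anti-PD-L1, gave 2 genes more than 2-fold higher in both pairs of libraries (0.0406% of 4926) and 5 lower (0.102%). The higher ones were Gzma and Fn1, and the lower ones the stress factor Atf3, Ccdc148, Plbd1, the peptide transporter Slc15a2 and the adhesion molecule Dscam. Dscam was at 740 CPM in control Tregs and 312 CPM with 2FF, and at 657 CPM with anti-PD-L1 and 323 CPM with 2FF plus anti-PD-L1, against 5.16 to 16.3 CPM outside the T cell gate. Adding 2DG in the same way gave 3 genes higher (0.0445% of 6737), namely Cd46, Ms4a4b and the gene model Gm15511, and 10 lower (0.148%). The 10 were Fn1, Atf3, Zfand2a, Plbd1, Adam8, Dip2c, Dab2, Slc15a2, App and the class II gene H2-Eb1. The steps of 2FF and of 2DG share the control and anti-PD-L1 libraries, so they are not separate repeats. Atf3, Plbd1 and Slc15a2 were lower in both steps. Fn1, Atf3, Plbd1, Adam8, Dip2c, Dab2, App and H2-Eb1 were more than 2-fold higher outside the T cell gate than in Tregs in all 6 libraries, and the part of RNA from such cells was not tested. Genes of these steps that no rule ranked were named after their values were seen.

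Further ranked genes varied between single libraries. For 2DG added to anti-PD-L1, Acod1 (2.42), the chemokine Ccl3 (2.03) and Ier5l (1.55) were higher and Wdfy4 (-3.65), Kit (-2.65) and Oasl1 (-2.25) lower. Wdfy4, which serves cross-presentation in dendritic cells, was at 127 CPM in Tregs with anti-PD-L1, from 15 cells, and at 4.78 to 28.2 CPM in the other libraries. For 2FF added to anti-PD-L1, Spp1 (osteopontin, 4.63), H2-T23 (1.77) and Cdk5rap1 (1.53) were higher and Wdfy4 (-2.08), Kit (-1.83) and Fgf13 (-1.75) lower. Spp1 rested on 509 UMIs in 23 Tregs, with 1085 CPM outside the T cell gate. H2-T23, the mouse class Ib molecule Qa-1, was at 60.7 CPM with anti-PD-L1 and 219 CPM with 2FF plus anti-PD-L1 in Tregs, 63.1 and 218 CPM in conventional CD4 T cells and 60.5 and 199 CPM outside the T cell gate, and can share reads with related class I genes. For 2DG plus anti-PD-L1 over 2DG, Acod1 (2.59), Ccl3 (1.83) and Areg were higher and Sema6d (-1.94), Hspa1b and B3galt1 (-1.52) lower. For 2FF plus anti-PD-L1 over 2FF, the inhibitory receptor Btla (1.97), the mitotic gene Cenpf (1.41) and Hist1h2bc (1.398) were higher and Ccl3 (-1.88), Fn1 (-1.69) and Hist1h2ap (-1.63) lower. Btla was at 8.37 CPM with 2FF, from 7 cells, and 32.8 to 52.2 CPM in the other 5 libraries.

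Lists of genes were compared between libraries with 5 CPM added, where 0.766% to 4.25% of all genes were past 2-fold. None of the 14 or 15 Treg identity genes with enough UMIs was past 2-fold in any of the 7 comparisons, a count near that share, with medians from 0.01 to 0.38 where the median of all genes lay between -0.05 and 0.04. With 1 CPM added instead, 1 member, Lrrc32, passed 2-fold, when 2DG was added to anti-PD-L1. At 2000 UMIs a cell these medians were below 0 when 2DG (-0.061) or 2FF (-0.072) was added to anti-PD-L1 and when anti-PD-L1 was added to 2FF (-0.069). Il2ra was at 875 CPM in control, 988 with 2DG and 1264 to 1355 CPM in the other 4 libraries, and Tnfrsf4 at 468, 664 and 763 to 826 CPM. Ctla4 formed 2 levels, 1524 to 1614 CPM in control, 2DG and anti-PD-L1 and 2583 to 2807 CPM in 2FF and both combinations, with no overlap of counting intervals between the levels. Conventional CD4 T cells of the same libraries had 596 to 747 CPM and 931 to 1229 CPM. Of the 18 genes of glucose use, 15 were below 0 for 2DG over control (median -0.30), 16 for 2DG added to anti-PD-L1 (-0.31) and 16 for 2FF plus anti-PD-L1 over 2FF (-0.23), whereas 14 were above 0 for 2FF over control (0.19), and the other 3 medians lay between -0.09 and 0.07; 1 of all these values was past 2-fold. The interferon list had 14 of 15 genes above 0 for 2FF over control (median 0.49) and 16 of 19 below 0 for 2FF plus anti-PD-L1 over 2FF (-0.13), with the other 5 medians between 0.04 and 0.19. At 2000 UMIs a cell the median for 2DG plus anti-PD-L1 over 2DG was -0.23 in place of 0.19, with 10 of 14 genes below 0, and 7 of 12 were below 0 for 2FF plus anti-PD-L1 over 2FF. Genes of dissociation and stress were below 0 for 18 of 20 with 2DG over control (median -0.63) and above 0 for 13 of 20 when anti-PD-L1 was added to 2DG (0.34), with the other 5 medians between -0.32 and -0.01. Of these 20 genes, 6 were past 2-fold for 2DG over control (3.19% of all genes), 4 for 2FF over control (4.25%), 4 for anti-PD-L1 over control (3.62%), 5 for 2DG plus anti-PD-L1 over 2DG (1.52%) and 1 or 2 in the other 3 comparisons. The cell cycle list was below 0 for all 11 genes with 2DG over control (-0.35) and for 7 of 8 with 2FF over control (-0.58), and above 0 for 11 of 12 genes with 2FF added to anti-PD-L1 (0.35) and 9 of 12 with anti-PD-L1 added to 2FF (0.35, and -0.017 over the 2 genes left at 2000 UMIs a cell). Its other 3 medians lay between -0.27 and -0.06. N-glycan and fucose genes had medians from -0.24 to 0.13, and the highest, for 2DG over control, turned to -0.28 over the 6 genes left at 2000 UMIs a cell. These medians describe single libraries and have no test.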

How the data were processed

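Cells from 6 mice, 1 per condition, were profiled with 10x Chromium 3' v3.1 libraries. Per the file headers and the study's methods, the authors made the deposited UMI counts per gene and cell with Cell Ranger 7.0.0 on mm10, whereas the submitters' processing notes name Cell Ranger 3.1.0. Whether intronic reads were counted is not given in the sources used here. The count matrices hold 32285 genes and 61859753 to 73885214 UMIs a library, and were used as deposited, with the study's limits of 250 genes and 5% mitochondrial UMIs; the study's own cell type names were not used. Groups came from the sample labels. Members, gene lists and tests were chosen with earlier results of these data known.

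UMIs were summed per library and cell group. Tregs against conventional CD4 T cells and Tregs with against without Klrg1 were tested with edgeR 4.0.16 (quasi-likelihood, library as a term, R 4.3.3), two-sided, with Benjamini-Hochberg adjustment over all genes tested, and the scripts were tested on simulated data. Between treatments log2 ratios of CPM + 5 were taken with no test. Shares carry exact Clopper-Pearson and levels exact Poisson 95% intervals, which cover counting error only. Thinning for summed levels and fits drew 2000 UMIs a cell (seed 1) and left shallower cells out. Shares of cells given at 2000 UMIs a cell do not come from that single draw. They are not whole numbers of cells, as with 14.6% of the 37 Klrg1-positive Tregs in control. No doublet caller was run; 37 Tregs had over 3 times the median UMIs, and leaving such cells out was an alternative, as were DESeq2 1.42.0, other filters, pseudocounts of 1 and 20 CPM, other Foxp3, Cd4 and myeloid limits, and each library left out. Named are the markers, the genes of 20 lists, the 10 called genes at each end of the Treg against conventional CD4 comparison with 1 direction in all 6 libraries, the 5 at each end of the Klrg1 comparison and the 3 at each end of each treatment comparison, without mitochondrial, ribosomal, T cell receptor, immunoglobulin and haemoglobin genes, Xist and gene models, and, between treatments, without genes whose Treg CPM is, in the library where it is higher, under 20% of that outside the T cell gate. Some genes, which the list counts leave out, and a further division of Tregs are not reported here. Gene positions are from GENCODE M21 (GRCm38, the build called mm10). Python 3.11.15 with NumPy 2.4.6, pandas 2.3.3 and SciPy 1.17.1 was used.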

Additional observations from a re-analysis of the deposited data

Results flagged for a closer look

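For 5 of the named genes, adding anti-PD-L1 went with a level more than 2-fold higher in Tregs of some pairs of libraries and more than 2-fold lower in others. Of these, only Acod1 and Ccl3 had at least 50 UMIs in each pair and UMIs in at least 10 cells of the higher library, the limits used for the treatment comparisons. The difference between pairs was not tested, since each pair is 1 mouse against 1 mouse. Acod1, a mitochondrial enzyme of activated myeloid cells, had a log2 ratio of -2.49 against control and 2.59 against 2DG. Its UMIs came from 11 to 25 Tregs a library, with 259 to 1228 CPM in cells outside the T cell gate. Ccl3, a chemokine, had -2.53 against control, 1.83 against 2DG and -1.88 against 2FF, from 12 to 34 Tregs. Cenpf, a centromere protein of dividing cells, had -1.11 against control and 1.41 against 2FF, from 7 to 26 Tregs, with 7 cells in control, the higher library of the first pair. Csf3r had -3.87 against control and 1.99 against 2DG, from 1 to 10 Tregs, the second ratio resting on 28 and 5 UMIs in 7 and 5 cells, with 103 to 354 CPM outside the T cell gate. Wdfy4 had 2.00 against control, -1.46 against 2DG and 1.68 against 2FF, from 2 to 15 Tregs, the second ratio resting on 6 cells in each library and the third on 45 and 4 UMIs, with 175 to 341 CPM outside the T cell gate. The part of RNA from other cells in these values was not tested.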

How the results depend on the processing

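In control, 2DG, 2FF, anti-PD-L1 and the combinations of 2DG and of 2FF with anti-PD-L1, the Treg share of T cells was 13.7%, 9.54%, 3.03%, 7.26%, 5.03% and 7.65% with at least 2 Foxp3 UMIs, 12.6%, 9.65%, 2.86%, 6.004%, 4.17% and 6.71% with a Cd4 UMI required, 11.7%, 8.21%, 2.80%, 6.27%, 4.69% and 5.73% at 2000 UMIs a cell, and 26.3%, 27.4%, 14.1%, 25.2%, 19.0% and 24.6% over T cells without Cd8 UMIs. The thinned medians over libraries for Il2ra, Ikzf2 and Tnfrsf4 were 67.1%, 97.4% and 66.2% of Tregs. Against conventional CD4 T cells, thinning, which leaves fewer genes to test, called 237 genes higher and 227 lower, and no filter called 617 lower. Leaving out each library gave 358 to 410 higher and 340 to 395 lower, and no library term 356 and 352. The Klrg1 division called 2 lower with DESeq2, 46 higher and 58 lower with no filter, 5 lower when thinned, and 2 to 10 higher and 6 to 18 lower with a library left out (10 higher without control, 5 higher and 18 lower without 2DG plus anti-PD-L1, 6 lower without 2DG or 2FF plus anti-PD-L1, 7 without anti-PD-L1). The thinned division used 5 libraries, without control, and a division by Ikzf2 could not be fitted for want of libraries with at least 20 cells on both sides. The cause of these shifts was not tested.

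Genes past 2-fold for 2DG, 2FF and anti-PD-L1 over control numbered 103, 106 and 108 with a pseudocount of 20, 59, 54 and 65 with at least 200 UMIs, and 152, 110 and 150 when thinned, and for 2DG 346 with a pseudocount of 1. With a pseudocount of 20 the balance of higher and lower genes was 10 and 93 for 2DG over control, 34 and 72 for 2FF over control and 28 and 80 for anti-PD-L1 over control. With 2DG and 2FF added to anti-PD-L1 they numbered 210 and 121 (pseudocount 1), 48 and 16 (pseudocount 20) and 39 and 12 (200 UMIs), with 85 for 2DG when thinned and 86 for 2FF with 2 Foxp3 UMIs. With anti-PD-L1 added to 2DG and 2FF they numbered 204 and 93 (pseudocount 1), 42 and 16 (pseudocount 20) and 48 and 10 (200 UMIs), and for 2FF 83 with no minimum of cells, 32 when thinned and 94 with 2 Foxp3 UMIs. Several list medians moved when thinned. Those of Treg identity were -0.061 and -0.072 for 2DG and 2FF added to anti-PD-L1, and 0.041 for anti-PD-L1 added to 2DG. The interferon median was -0.23 for anti-PD-L1 added to 2DG. It went from 0.18 to 0.39 for 2DG over control and from 0.13 to 0.26 for anti-PD-L1 over control. Cell cycle medians were -0.74, -0.41 and -0.017 for anti-PD-L1 added to control, 2DG and 2FF. N-glycan and fucose medians were -0.28 and -0.46 for 2DG added to control and to anti-PD-L1. For anti-PD-L1 over control that median went from 0.06 to 0.21. The stress median was -0.51 for 2DG over control (-0.63 as reported). The cell cycle values rest on the 2 genes left to test, and further list medians near 0 changed sign when thinned; list medians carry no test.

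Of single genes named in the comparison with conventional CD4 T cells, 2340 values stayed on the same side of an adjusted p of 0.05, whatever their fold. An adjusted p under 0.05 was lost in 105 values and gained in 45. For the Klrg1 division 119 values stayed on the same side and 38 lost it. No named gene changed sign where its adjusted p was under 0.05 in the main fit or in the alternative. Genes not named were not checked for this. Between treatments no model over the 6 libraries, such as 1 with additive terms for inhibitor and anti-PD-L1, was fitted; Tregs and conventional CD4 T cells of a mouse were compared with the library as a term. Control held only 86 Tregs, and differences between libraries carry no estimate of the spread between mice.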

Other observations

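Tnfrsf4 was higher in Tregs with more than 2 Foxp3 UMIs than in Tregs with 1 in 5 of 6 libraries, a division that follows the selecting gene and also depth, since the former had the higher median UMI count in every library. Tnfrsf4 was at 602 and 294 CPM in control, 754 and 502 with 2DG, 978 and 658 with 2FF, 844 and 583 with anti-PD-L1 and 840 and 526 with 2FF plus anti-PD-L1, but at 755 and 775 CPM under 2DG plus anti-PD-L1. Il2ra showed no single direction, with 776 and 905 CPM in control and 1574 and 903 CPM with 2FF. These values carry no test.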
